A study of Mus musculus with 12 samples.

Results

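The aldehyde dehydrogenase genes described here were Aldh1a1, Aldh1a2, Aldh1a3, Aldh1l1, Aldh1l2, Aldh2, Aldh3a1, Aldh3a2, Aldh6a1 and Aldh7a1, chosen by gene symbol, and they made up 10 of the 55573 genes in the table of raw counts. They were read in tumourspheres, which are floating colonies of tumour cells, of 3 mouse spindloid mammary tumour lines named A1005, A1129 and A1471. Every line carried the genotype MMTV-Metmt;Trp53fl/+;Cre, so the DMSO controls shared the oncogenic Met transgene and the conditional Trp53 allele with the treated cells. The MMTV promoter of the transgene is active mainly in mammary epithelium, and each line came from a separate tumour of this model, so a line stands for 1 tumour. The study states that the endogenous Met locus also becomes amplified in this model. The count table gives neither copy number nor whether these lines still express the transgene. Each line received for 24 h the vehicle DMSO, 1 µM of the Met kinase inhibitor Crizotinib, 1 µM of PD173074, which blocks FGF receptor kinases, or both inhibitors together, with 1 library per line and treatment (n = 3 lines per treatment).

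Aldehyde dehydrogenases oxidise reactive aldehydes to carboxylic acids with NAD or NADP, and each member has its own substrates and cell compartment. The Aldh1a enzymes make retinoic acid from retinaldehyde, and their activity, read by a fluorescent substrate, is widely used to mark stem-like cells of the normal and malignant breast. Other members work in folate metabolism, in the clearance of acetaldehyde and lipid aldehydes, and in the breakdown of amino acids.

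The libraries held 13031492 to 17750476 counts, so 3 counts, the limit that a count of 0 allows, stood for 0.167 to 0.234 CPM. CPM is the counts-per-million value of a gene, its count relative to the size of its library as adjusted by edgeR's TMM method. The lines read little of the epithelial markers (9 genes, 7.54 to 53.4 CPM in sum) and much of the mesenchymal markers (8 genes, 2460 to 8490 CPM in sum). Krt5 and Cldn7 were at 0 in every library, whereas Krt18 had 53 to 748 counts and Krt8 had 17 to 611. The mesenchymal markers were uneven too. Vim had 30314 to 49234 counts and Fn1 had 6022 to 67499, but Cdh2 had at most 6 and Snai2 at most 32. Col1a1 ran from 0 to 13654 counts. Leukocyte markers summed to 4.47 to 42.0 CPM over 7 genes. Among them Ptprc, which encodes CD45, had 174 to 339 counts in the libraries of A1005 and 0 to 2 in A1129 and A1471. Cd68 was read in every library, with 62 to 439 counts. It was at 14.3 to 24.4 CPM in A1005 and at 4.21 to 10.8 CPM in A1129 and A1471. Cd3e, Adgre1 and Itgam did not exceed 2 counts in any library. Ptprc is given again beside the members that were high in A1005. In these bulk samples, fewer cells of a type and less RNA per cell cannot be told apart.

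Of the 10 genes, 7 passed the filter on low counts and were tested, and Aldh1a1, Aldh1a2 and Aldh1a3 did not. The clearest change was that of Aldh6a1, which rose 2.70-fold to 5.10-fold in all 3 lines under both inhibitors. Aldh3a1 and Aldh3a2 were also higher in every line under both inhibitors, and Aldh1l2 was lower in every line. Aldh1l1 was higher in A1005 and A1471 and stayed at 3 counts or fewer in A1129. Aldh1a1 was read almost entirely in A1129 and only when PD173074 was present. The plot of levels by library shows how much the lines differed before any treatment.

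**Figure D1:**
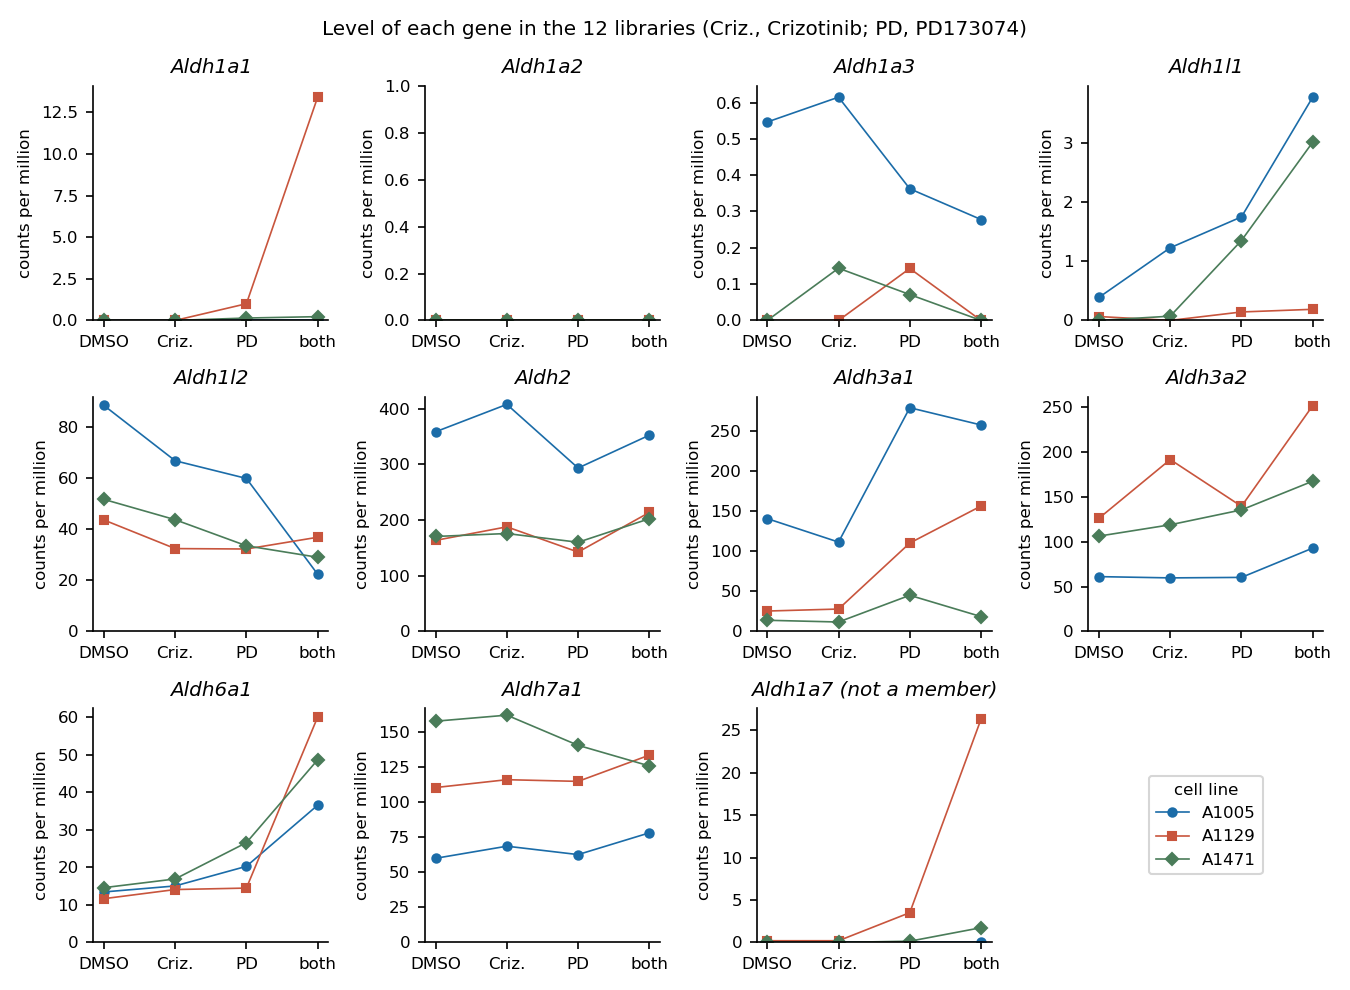
Level of the 10 genes and of Aldh1a7 in TMM-scaled CPM (vertical axes, own scale in each panel) under the 4 treatments, with 1 joined series of points per cell line. Aldh6a1 rises in all 3 lines with the combination, whereas Aldh1a1 and Aldh1a7 rise mainly in A1129 and Aldh1a2 is at 0 throughout.

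Levels of different genes were compared per length, as CPM per kilobase of exon (RPKM, mean ± SD over the 3 lines). With DMSO, Aldh2 was at 45.0 ± 21.6 RPKM, Aldh3a1 at 30.9 ± 36.1, Aldh7a1 at 21.1 ± 9.43 and Aldh3a2 at 17.4 ± 5.93, and the ranges of these neighbours overlapped. Aldh1l2 followed at 8.15 ± 3.18 RPKM and Aldh6a1 at 2.28 ± 0.255, and these last levels did not overlap between the lines. Aldh1a3 at 0.0395 RPKM and Aldh1l1 at 0.0337 RPKM were near the limit of detection, and Aldh1a1 and Aldh1a2 had no count. With the combination the order was Aldh3a1 (74.1 ± 61.7 RPKM), Aldh2 (50 ± 16.3), Aldh3a2 (30.4 ± 14.1), Aldh7a1 (21.7 ± 5.79), Aldh6a1 (8.36 ± 2.03) and Aldh1l2 (3.91 ± 0.963). Aldh6a1 and Aldh1l2 had therefore changed places. Aldh1a1 came next at 0.921 ± 1.56 RPKM, an SD above its mean because 1 line held nearly all its counts, followed by Aldh1l1 at 0.516 ± 0.419.

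**Figure D2:**
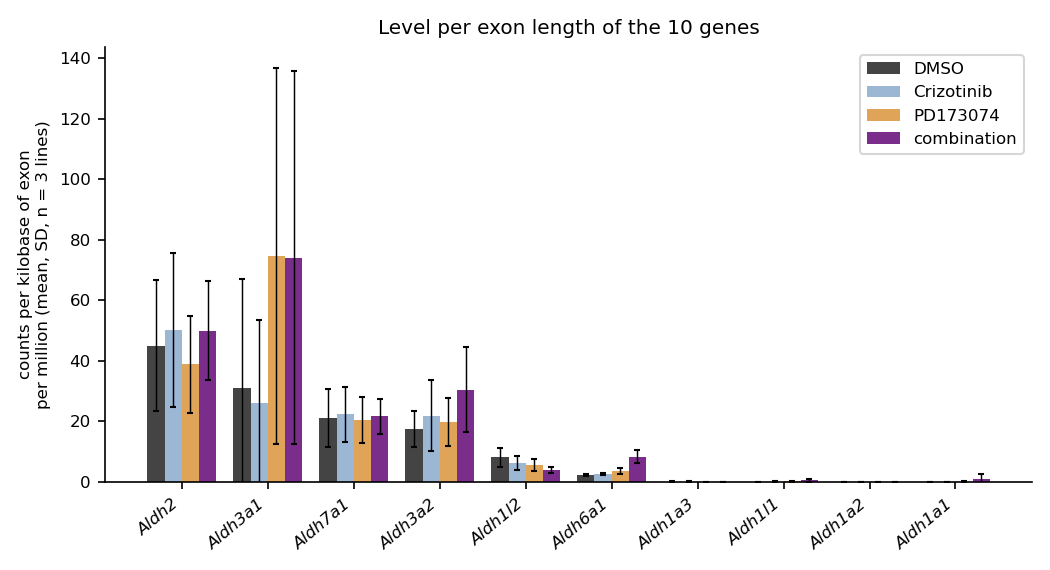
Mean level per length of the 10 genes under the 4 treatments, in RPKM; bars are means over 3 cell lines and whiskers are the SD, cut at 0 where the SD exceeds the mean. Aldh2 and Aldh3a1 have the highest means under each treatment, and from DMSO to the combination Aldh6a1 goes from 2.28 to 8.36 RPKM and Aldh1l2 from 8.15 to 3.91 RPKM.

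Aldh1a1, Aldh1a2 and Aldh1a3 are cytosolic enzymes that turn retinaldehyde into retinoic acid. Aldh1a1 lies at chr19:20492715-20643465 on the plus strand of the mouse build mm10, next to Aldh1a7, a rodent copy of it, at chr19:20692953-20727562 on the minus strand. Reads of such close copies can be hard to assign, so part of both is shown. The longest of the 13 coding exons of Aldh1a1 covers 185 bases at chr19:20630666-20630850 on the plus strand, and its match in Aldh1a7 lies at chr19:20708150-20708334 on the minus strand. Capitals mark the 29 bases that differ (GENCODE M21 annotation and transcripts, 5′ to 3′ along the transcript).
Aldh1a1: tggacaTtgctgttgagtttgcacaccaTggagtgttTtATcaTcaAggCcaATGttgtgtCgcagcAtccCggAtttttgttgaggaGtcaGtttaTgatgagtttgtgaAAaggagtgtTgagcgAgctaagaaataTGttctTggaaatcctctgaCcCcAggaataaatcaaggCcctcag
Aldh1a7: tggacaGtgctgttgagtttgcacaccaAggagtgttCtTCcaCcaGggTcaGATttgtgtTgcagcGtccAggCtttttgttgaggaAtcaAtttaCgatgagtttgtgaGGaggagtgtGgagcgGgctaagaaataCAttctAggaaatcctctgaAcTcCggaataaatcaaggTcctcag
Over the whole coding sequence of 1506 bases, 91.6% of positions were identical. Of the 50-base stretches of the Aldh1a1 transcript, 151 of 2309 (6.54%) also occurred in the Aldh1a7 transcript, and of the 75-base stretches 2.19% did. Reads from those stretches could be counted on neither gene or on the wrong one, and the rest of both transcripts can be told apart. The other two Aldh1a members shared no 50-base stretch with Aldh1a1 and were 69.1% (Aldh1a2) and 67.2% (Aldh1a3) identical to it in coding sequence.

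Aldh1a1 had 0 counts in all 3 lines with DMSO and 0 in all 3 with Crizotinib. With PD173074 it had 0 counts in A1005, 14 in A1129 and 2 in A1471. With the combination it had 0 counts in A1005, 214 in A1129 and 3 in A1471. Only A1129 rose clear of the limit of detection, and the treatments overlapped because A1005 stayed at 0. Against the limit of 3 counts per library, Aldh1a1 in A1129 was at least 5.08-fold higher with PD173074 and at least 68.0-fold higher with the combination. Limits of this kind set the DMSO count at 3 and take the treated count as read, without its counting error. For low treated counts they are therefore not strict minima. Intervals given below cover counting error only, since these reads carried no molecular identifiers. Aldh1a1 did not pass the filter on low counts, and when edgeR's quasi-likelihood test was run on every gene with a count, its log2 fold change with the combination was 9.02 (SE 3.02, adjusted p = 0.172).

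Aldh1a7 had 0, 3 and 0 counts with DMSO in A1005, A1129 and A1471, and the same 0, 3 and 0 with Crizotinib. With PD173074 it had 0, 49 and 2 counts, and with the combination 0, 420 and 23. In A1129 it was thus high in the same libraries as Aldh1a1, and in A1471 it also rose with the combination. In A1129 the ratio to DMSO was 17.8 (95% interval 5.73 to 89.1) with PD173074 and 133 (45.3 to 649) with the combination. In A1471 it was at least 8.38-fold higher with the combination. Aldh1a7 passed the filter on low counts only through the libraries in which it was high. Its calls in the blocked fit (the cell line added as a term), with PD173074 and with the combination, followed that selection and are not used as support, and the unpaired test gave no call with the combination (adjusted p = 0.127).

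Because both genes rose in A1129, the stretches before their starts are shown as well. They are the last 100 bases before the inner start of Aldh1a1, at chr19:20601868-20601967 on the plus strand, and before the start of Aldh1a7, at chr19:20727557-20727656 on the minus strand. Sequences are from the RefSeq promoter table (GRCm38.p6), and capitals mark the 6 bases that differ.
Aldh1a1: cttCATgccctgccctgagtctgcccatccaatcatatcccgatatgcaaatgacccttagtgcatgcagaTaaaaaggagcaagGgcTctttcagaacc
Aldh1a7: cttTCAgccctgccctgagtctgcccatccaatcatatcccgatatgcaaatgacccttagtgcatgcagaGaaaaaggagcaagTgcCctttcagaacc
Both hold a core motif of retinoid receptors (GGTCA, searched on both strands) on the minus strand, 49 bases before the start. Of the 32851 promoters in the table, 40.5% hold these letters within 300 bases, so a match is common and is a description of the sequence alone. The outer start of Aldh1a1 holds an AP-1 motif (TGANTCA), which 7.81% of promoters hold. The count table does not tell from which start the reads of Aldh1a1 came.

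Aldh1a2 had 0 counts in all 12 libraries. Aldh1a3, a member tied to the stem-like fraction of human breast tumours, had 7, 0 and 0 counts with DMSO in A1005, A1129 and A1471. It had 9, 0 and 2 counts with Crizotinib, 6, 2 and 1 with PD173074 and 5, 0 and 0 with the combination. Its few counts lay mainly in A1005, the line with Ptprc counts (174 to 339), under every treatment, and no difference between treatments was detectable at this depth.

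The genes around retinoic acid were read more fully. Of 28 listed genes for retinol handling, retinoic acid breakdown and its receptors, 18 were tested in the combination against DMSO. None was called in the unpaired fit by edgeR's quasi-likelihood test, with 1 at an unadjusted p under 0.05, where 14.4% of all genes were called. With the line as a block 7 rose and 2 fell, beside 28.6% of all genes higher and 26.2% lower, so the list was called no more often than the table as a whole. The 4 genes with the smallest adjusted p, all higher with the block, were Dhrs4 (log2 fold change 0.76, adjusted p = 0.000473), Cyp26b1 (2.13, adjusted p = 0.00182), Rxra (0.53, adjusted p = 0.00257) and Dhrs3 (1.98, adjusted p = 0.00286). Cyp26b1 breaks retinoic acid down, Dhrs3 reduces retinaldehyde to retinol, and Rxra encodes a nuclear receptor partner. Cyp26b1 was at 61.3, 0.329 and 0.829 CPM with DMSO and at 156, 2.26 and 9.88 CPM under both inhibitors in A1005, A1129 and A1471, so its level was highest in the line without Aldh1a1 counts.

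Aldh1l1 and Aldh1l2 oxidise formyltetrahydrofolate to tetrahydrofolate and carbon dioxide, Aldh1l1 in the cytosol and Aldh1l2 in mitochondria. They lie at chr6:90486427-90600203 on the plus strand and chr10:83487450-83534140 on the minus strand. Their coding sequences were 71.7% identical, with no 50-base stretch in common. Aldh1l2 shares 1056 exon bases with D10Wsu102e on the opposite strand, which had up to 1260 counts, and whether strand was used in counting is not given in the sources used here.

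Aldh1l1 had 5, 1 and 0 counts with DMSO in A1005, A1129 and A1471, and 18, 0 and 1 with Crizotinib. It had 29, 2 and 19 counts with PD173074 and 68, 3 and 40 with the combination. A1005 and A1471 were high wherever PD173074 was present, A1129 stayed at 3 counts or fewer, and the groups overlapped because of A1129. In CPM, A1005 went from 0.390 with DMSO to 1.75 with PD173074 and 3.78 with the combination. In A1471 the level was at least 6.53-fold higher with PD173074 and at least 14.6-fold higher with the combination than with DMSO. Ptprc stood at 13.6, 14.0, 20.5 and 17.5 CPM in A1005 with DMSO, Crizotinib, PD173074 and the combination, and at 0 to 0.138 CPM in the other two lines. Its part in the level of Aldh1l1 was not tested.

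Aldh1l2 was at 88.3, 43.5 and 51.6 CPM with DMSO in A1005, A1129 and A1471, and at 66.7, 32.4 and 43.6 CPM with Crizotinib. It was at 59.8, 32.2 and 33.5 CPM with PD173074 and at 22.4, 36.8 and 29.0 CPM with the combination. Every treated library was below the DMSO library of its own line, and the combination group lay wholly below the DMSO group. The level with the combination was 0.254 of DMSO in A1005, 0.845 in A1129 and 0.563 in A1471, so A1005 fell most and A1129 least. Ptprc went from 13.6 CPM with DMSO to 17.5 CPM with the combination in A1005, and its part in the level of Aldh1l2 was not tested.

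Aldh2, Aldh3a1 and Aldh3a2 clear aldehydes of different kinds. Aldh2, at chr5:121566027-121593824 on the minus strand, is the mitochondrial enzyme that oxidises acetaldehyde and lipid peroxidation products. Aldh3a1 (chr11:61207537-61218421, plus strand) is a cytosolic enzyme for aromatic and medium-chain aldehydes, abundant in the cornea. Aldh3a2 (chr11:61223417-61267464, minus strand), its neighbour, encodes the fatty aldehyde dehydrogenase of the endoplasmic reticulum. The coding sequences of the neighbours were 66.2% identical and shared no 50-base stretch.

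Aldh2 was at 358, 164 and 170 CPM with DMSO in A1005, A1129 and A1471, and at 408, 188 and 176 CPM with Crizotinib. It was at 293, 143 and 160 CPM with PD173074 and at 352, 214 and 202 CPM with the combination. A1005 had the highest level under every treatment, where Ptprc was also read, and the part of that in the level was not tested. Within a line the changes were small, from 0.818-fold to 1.15-fold with a single inhibitor and from 0.983-fold to 1.31-fold with both, and the groups overlapped.

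Aldh3a1 was at 141, 25.4 and 13.9 CPM with DMSO in A1005, A1129 and A1471, and at 111, 27.9 and 11.7 CPM with Crizotinib. It was at 279, 110 and 45.0 CPM with PD173074 and at 257, 156 and 18.5 CPM with the combination. The lines stayed far apart, with A1005 highest as for Ptprc (its part was not tested), so the groups overlapped, yet PD173074 was above DMSO in each of them. The folds over DMSO were 1.98, 4.32 and 3.22 with PD173074 in A1005, A1129 and A1471. They were 1.83, 6.13 and 1.33 with the combination. Adding Crizotinib to PD173074 thus went with a higher level in A1129 (1.42-fold) and a lower one in A1005 (0.923-fold) and A1471 (0.413-fold).

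Aldh3a2 was at 61.1, 126 and 106 CPM with DMSO in A1005, A1129 and A1471, and at 59.6, 192 and 119 CPM with Crizotinib. It was at 60.2, 139 and 135 CPM with PD173074 and at 92.8, 252 and 167 CPM with the combination. Each line had its highest level with the combination, 1.52-fold, 1.99-fold and 1.58-fold over DMSO, although A1005 with both inhibitors stayed below A1129 and A1471 with DMSO, so that the groups overlapped. Unlike Aldh2 and Aldh3a1, this gene was lowest in A1005.

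**Figure D3:**
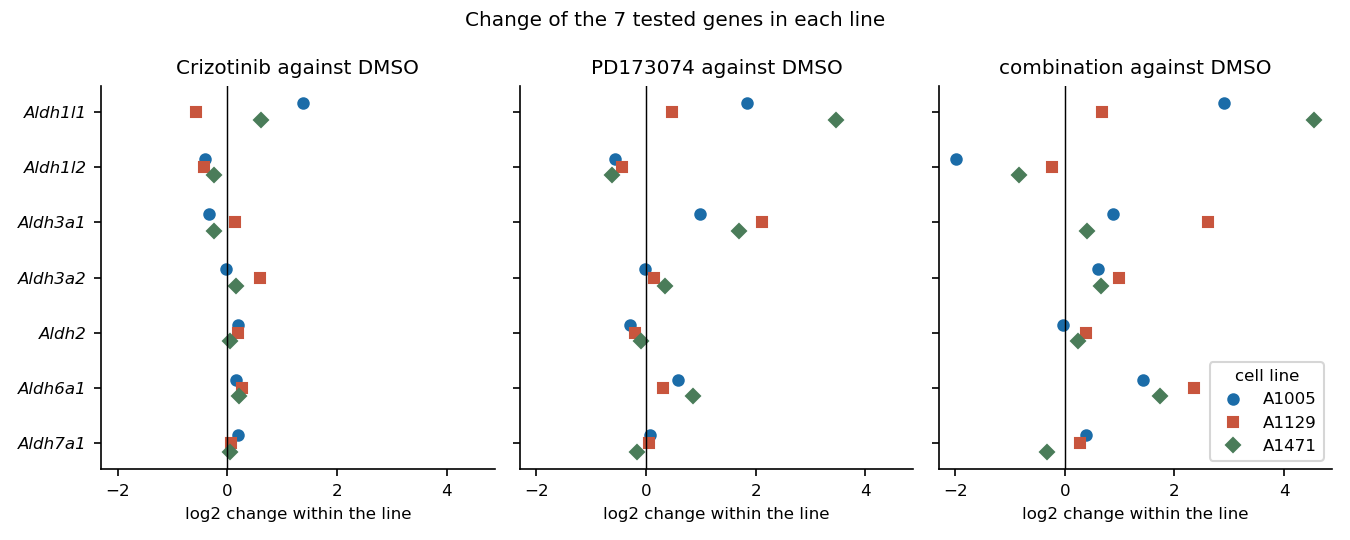
Log2 change from the DMSO library of the same cell line (TMM log2 CPM, prior count 2) for the 7 tested genes with Crizotinib, PD173074 and the combination, with 1 point per line. Crizotinib points lie near 0 for most genes, Aldh3a1 is above 0 in all 3 lines with PD173074, and Aldh6a1 is at 1.43 to 2.35 with the combination.

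Aldh6a1 and Aldh7a1 are mitochondrial enzymes of amino acid breakdown. Aldh6a1 (chr12:84430717-84451004, minus strand) handles methylmalonate semialdehyde in the breakdown of valine and thymine. Aldh7a1, on chromosome 18, oxidises aminoadipic semialdehyde in lysine breakdown. Aldh6a1 shares 1078 exon bases with Bbof1 on the opposite strand, which had at most 31 counts in any library. Aldh7a1 shares 300 with Phax, which had up to 1936.

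Aldh6a1 was at 13.4, 11.6 and 14.6 CPM with DMSO in A1005, A1129 and A1471, and at 15, 14.1 and 16.9 CPM with Crizotinib. It was at 20.3, 14.5 and 26.6 CPM with PD173074 and at 36.5, 60.0 and 48.6 CPM with the combination. The combination group lay wholly above each of the other 3 groups, and the lines were close together with DMSO (13.2 ± 1.48 CPM, SD, n = 3). The folds over DMSO in A1005, A1129 and A1471 were 1.5, 1.24 and 1.81 with PD173074 and 2.70, 5.10 and 3.31 with the combination. A1129, the line with the smallest response to PD173074 alone, had the largest to both.

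Aldh6a1 was the one member called in the unpaired fit, so the sequence before its main start is shown. These are 250 bases at chr12:84451025-84451274 on the minus strand (RefSeq promoter table, GRCm38.p6), with the GGTCA motif in capitals, as it reads from the opposite strand.
Aldh6a1: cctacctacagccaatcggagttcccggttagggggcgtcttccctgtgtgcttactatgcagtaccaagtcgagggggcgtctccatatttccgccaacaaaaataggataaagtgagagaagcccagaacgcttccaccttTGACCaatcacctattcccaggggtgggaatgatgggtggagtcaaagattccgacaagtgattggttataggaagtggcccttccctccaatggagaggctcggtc
The GGTCA motif lies 107 bases before the start. Within 50 bases after the start lies an AhR core motif (GCGTG, in 32.4% of promoters). The letters searched for FoxO (GTAAACA, 3.65% of promoters), Atf4 (TGATGNAA, 3.97%), AP-1 and Nrf2 (TGACNNNGC, 12.4%) are not in this window. Of the 10 members, 5 had an entry in the promoter table.

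Aldh7a1 was at 60.0, 110 and 158 CPM with DMSO in A1005, A1129 and A1471, and at 68.6, 116 and 162 CPM with Crizotinib. It was at 62.6, 115 and 141 CPM with PD173074 and at 78.1, 134 and 126 CPM with the combination. The order of the lines changed only with the combination, where A1471 was at 0.798 of DMSO while A1005 (1.30-fold) and A1129 (1.21-fold) were above it, and the groups overlapped.

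In the combination against DMSO, edgeR's quasi-likelihood test without the line as a term called 1 of the 7 tested members, against 14.4% of all 13836 genes tested. That member was Aldh6a1, with a log2 fold change of 1.87 (SE 0.26, adjusted p = 0.00184). Leaving out A1471 ended this call (1.96, adjusted p = 0.0751). Without A1471 the fit called only 120 of 14021 genes, so the loss was not particular to Aldh6a1. Libraries of a line resembled each other strongly, so the cell line was also fitted as a block. That fit called 5 of the 7, against 54.8% of all genes (28.6% higher and 26.2% lower), so a call with the block was common in the table. Members higher with the block were Aldh6a1 (log2 fold change 1.88, SE 0.22, adjusted p = 7.47e-05), Aldh3a2 (0.75, SE 0.13, adjusted p = 0.00101), Aldh1l1 (3.93, SE 0.79, adjusted p = 0.00201) and Aldh3a1 (1.39, SE 0.36, adjusted p = 0.00803). Aldh1l2 was lower (log2 fold change -0.94, SE 0.28, adjusted p = 0.0169). Aldh1l1 had at most 5 counts with DMSO and passed the filter through libraries in which it was high, so its call and its place among the 5 are not support for a change of the family. With at least 10 counts required in every library, or with only the groups compared, 6 members were tested and Aldh1l1 was not. The median of the 7 was 0.80 in the unpaired fit and 0.75 with the block, beside 0.02 and 0.03 over all genes tested. It includes Aldh1l1, with the selection just named, so it is a description and not support for a change of the family.

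In the unpaired fit the same genes had wide errors, and none of the 4 was called there. Aldh1l1 had a log2 fold change of 3.90 (SE 1.76, adjusted p = 0.174) and Aldh3a1 1.27 (SE 1.18, adjusted p = 0.539). Aldh3a2 had 0.80 (SE 0.51, adjusted p = 0.342) and Aldh1l2 -1.06 (SE 0.38, adjusted p = 0.0928). With the block, the call of Aldh3a1 was lost without A1129 (0.69, adjusted p = 0.0566), and that of Aldh1l2 without A1005 (-0.51, adjusted p = 0.0517) or A1471 (-0.98, adjusted p = 0.12). Aldh2 (0.21, SE 0.10, adjusted p = 0.117) and Aldh7a1 (0.12, SE 0.13, adjusted p = 0.463) were not called with the block, but each was when the line going the other way was left out: Aldh2 without A1005 (0.33, adjusted p = 0.0455) and Aldh7a1 without A1471 (0.34, adjusted p = 0.038).

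**Figure D4:**
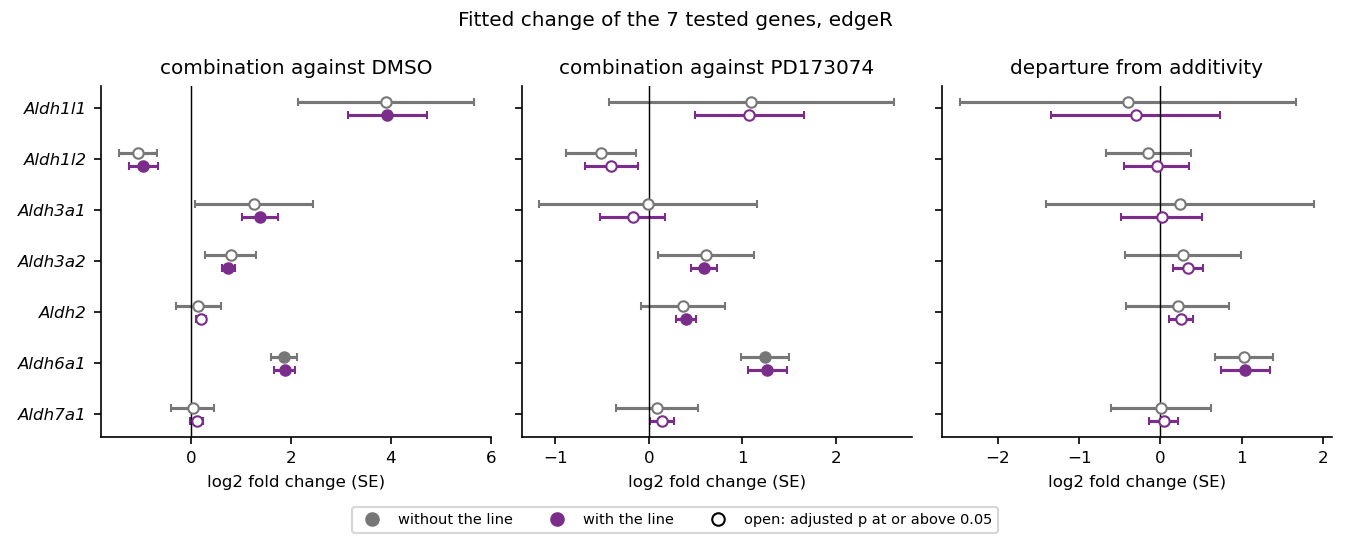
Fitted log2 fold change ± SE of the 7 tested genes in edgeR for the combination against DMSO, the combination against PD173074 and the departure from additivity, without the cell line (grey) and with it as a block (purple); filled points had an adjusted p under 0.05. Estimates of the 2 fits lie close together, errors are smaller with the block for each gene, and Aldh6a1 is filled in both fits in the first 2 panels.

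With Crizotinib alone, no member was called against DMSO by edgeR without or with the block, nor any of the 13836 genes. None of the members had an unadjusted p under 0.05 in either edgeR fit, in DESeq2 or in limma-voom. With PD173074 alone, edgeR called none without the block, where no gene of the table was called either. One member, Aldh6a1, had an unadjusted p under 0.05 there (log2 fold change 0.63, SE 0.25), as 1 did in DESeq2 and 0 did in limma-voom, neither of which called a member. With the block 0 members were called, against 2.14% of all genes, and 3 had an unadjusted p under 0.05. They were Aldh3a1 (log2 fold change 1.56, SE 0.36, adjusted p = 0.0545), Aldh1l1 (2.86, SE 0.85, adjusted p = 0.126) and Aldh6a1 (0.62, SE 0.21, adjusted p = 0.19). The selection of Aldh1l1 by the filter holds here too, so its value is not used as support.

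Against Crizotinib alone, the combination changed 1 of 7 members in the unpaired fit, beside 13.2% of all genes. It was Aldh6a1 again (log2 fold change 1.66, SE 0.26, adjusted p = 0.00334), and the call was lost without A1129 (1.43, adjusted p = 0.053) or A1471 (1.75, adjusted p = 0.0861). With the block 4 of 7 were called, beside 53.4% of all genes, each higher. They were Aldh6a1 (1.66, adjusted p = 0.000144), Aldh3a1 (1.58, adjusted p = 0.0042), Aldh1l1 (2.55, adjusted p = 0.00803) and Aldh3a2 (0.50, adjusted p = 0.00937). Aldh1l1 passed the filter through libraries in which it was high, so its call here is not used as support. The call of Aldh1l1 was lost without A1471 (1.73, adjusted p = 0.0503) and that of Aldh3a2 without A1005 (0.45, adjusted p = 0.0572). Aldh1l2 was called when A1129 was left out (-1.02, adjusted p = 0.0334).

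Against PD173074 alone, the combination changed 1 of 7 members in the unpaired fit, beside 4.77% of all genes. Aldh6a1 had a log2 fold change of 1.24 (SE 0.26, adjusted p = 0.0229), and the call was lost without A1005 (1.41, adjusted p = 0.0752), A1129 (0.87, adjusted p = 0.326) or A1471 (1.47, adjusted p = 0.191). With the block 3 of 7 were called, beside 39.8% of all genes, each higher. They were Aldh6a1 (1.26, SE 0.21, adjusted p = 0.00144), Aldh3a2 (0.59, SE 0.13, adjusted p = 0.00678) and Aldh2 (0.40, SE 0.10, adjusted p = 0.0133), the last lost without A1129 (0.31, adjusted p = 0.139) or A1471 (0.43, adjusted p = 0.074). Aldh3a1, which was higher in every line with PD173074, was at -0.17 (SE 0.35, adjusted p = 0.714) here.

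The departure from additivity is the log2 change with both inhibitors minus the sum of the changes with each alone. In the unpaired fit edgeR called 0 of 7 members, beside 0.918% of all genes, with 1 at an unadjusted p under 0.05, and DESeq2 and limma-voom each gave the same pair of counts. With the block 1 was called, beside 16.2% of all genes. For Aldh6a1 the departure was 1.03 (SE 0.36, adjusted p = 0.353) without and 1.05 (SE 0.30, adjusted p = 0.0396) with the block. That call was lost without A1005 (1.22, adjusted p = 0.066), A1129 (0.68, adjusted p = 0.128) or A1471 (1.26, adjusted p = 0.159).

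Over the 12 libraries, the 3 tested genes with the pattern most like that of Aldh6a1 were Pcmtd1 (Pearson's r of log2 CPM 0.988), Pdk2 (0.984) and Acad11 (0.980), as a description of libraries that share lines and treatments. Pdk2 encodes a kinase that switches off pyruvate dehydrogenase, and Acad11 an acyl-CoA dehydrogenase. Among the members, Aldh2 and Aldh7a1 ran most opposite to each other (r = -0.849 over the same 12 libraries), which follows the order of the lines: A1005 was highest for Aldh2 and lowest for Aldh7a1.

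Of the other ALDH family genes, 11 were in the table and 9 were tested. In the combination against DMSO none was called without the block in edgeR, with 1 at an unadjusted p under 0.05, whereas with the block 3 rose and 3 fell, beside 28.6% of all genes higher and 26.2% lower. Higher were Aldh1a7, with the selection named above, Aldh3b1 (log2 fold change 1.71, adjusted p = 0.00296) and Aldh4a1 (0.87, adjusted p = 0.00562), a mitochondrial enzyme of proline breakdown. Lower were Aldh18a1 (-1.02, adjusted p = 2.44e-05), which makes the precursor of proline and ornithine, Aldh16a1 (-0.32, adjusted p = 0.0391) and Aldh9a1 (-0.27, adjusted p = 0.039).

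The pathways in which the members work were followed through lists of genes, each read against 14.4% of all genes called without and 54.8% with the block. Of 19 tested genes of folate one-carbon metabolism, the pathway of Aldh1l1 and Aldh1l2, 10 fell and 0 rose in the unpaired fit, and with the block 13 fell and 2 rose. The median log2 fold change was -0.94 in the unpaired fit. Among the leading genes were Shmt2 (unpaired log2 fold change -1.99, adjusted p = 0.00178), Mthfd2 (-2.42, adjusted p = 0.00217) and Shmt1 (-1.66, adjusted p = 0.0366). Shmt2 and Mthfd2 act in mitochondria, as Aldh1l2 does, and were lower in every line with the combination than in any with DMSO.

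Of 21 genes of branched-chain amino acid breakdown, in which Aldh6a1 acts, 3 rose and 1 fell without the block, and 11 rose and 6 fell with it, with a median of 0.25 without. Bckdha, a subunit of the branched-chain ketoacid dehydrogenase, rose (unpaired log2 fold change 1.03, adjusted p = 0.00188), as did Abat (4.93, adjusted p = 0.00671), a transaminase. Abat had 2 to 4 counts with DMSO and passed the filter through libraries in which it was high. Its call, among those that rose in either fit, is therefore not used as support. Bcat1, the cytosolic transaminase that starts the pathway, fell (-2.55, adjusted p = 0.0401). Mccc1, of leucine breakdown, rose with the block (0.76, adjusted p = 0.000342).

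Aldh3a1 is a known target of the aryl hydrocarbon receptor in other tissues. The list for AhR and Nrf2 holds target genes and also Ahr, Arnt and Nfe2l2, which encode the factors themselves. Of its 16 tested genes, 1 fell without the block, Gsr (-1.64, adjusted p = 0.00134), and 5 rose and 7 fell with it. Cyp1b1 (3.29, adjusted p = 0.000566), Gstm1 (1.55, adjusted p = 0.000114) and Hmox1 (1.06, adjusted p = 0.000526) rose with the block. Other targets on the list had lower means with the combination than with DMSO. They were Tiparp (160 against 232 CPM), Nqo1 (46.3 against 73.9) and Cyp1a1 (1.59 against 2.16). Of 18 genes of the Atf4 amino acid response, which also includes Shmt2 and Mthfd2, 7 fell without the block and 13 fell and 2 rose with it. Asns, asparagine synthetase, fell (unpaired -1.69, adjusted p = 0.00411), as did Psph of serine synthesis (-1.37, adjusted p = 0.045).

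The other stem and progenitor markers of the mammary gland are read in the same way as the Aldh1a genes. Of 22 listed, 13 were tested, and Prom1, Thy1 and Kit had no count in any library. In the unpaired fit 2 fell, Cd44 (log2 fold change -2.24, adjusted p = 0.00181) and Procr (-1.26, adjusted p = 0.0249), where 14.4% of all genes were called. With the block 3 rose and 4 fell, beside 28.6% of all genes higher and 26.2% lower. The list was thus called about as often as the table as a whole. Lgr4 was among those higher with the block (1.20, adjusted p = 0.000104) and Itga6 among those lower (-1.36, adjusted p = 0.000164). Cd44 was at 431, 561 and 710 CPM with DMSO and at 176, 74.6 and 111 CPM under both inhibitors in A1005, A1129 and A1471, in contrast to Aldh1a1, which was at 0 with DMSO.

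**Figure D5:**
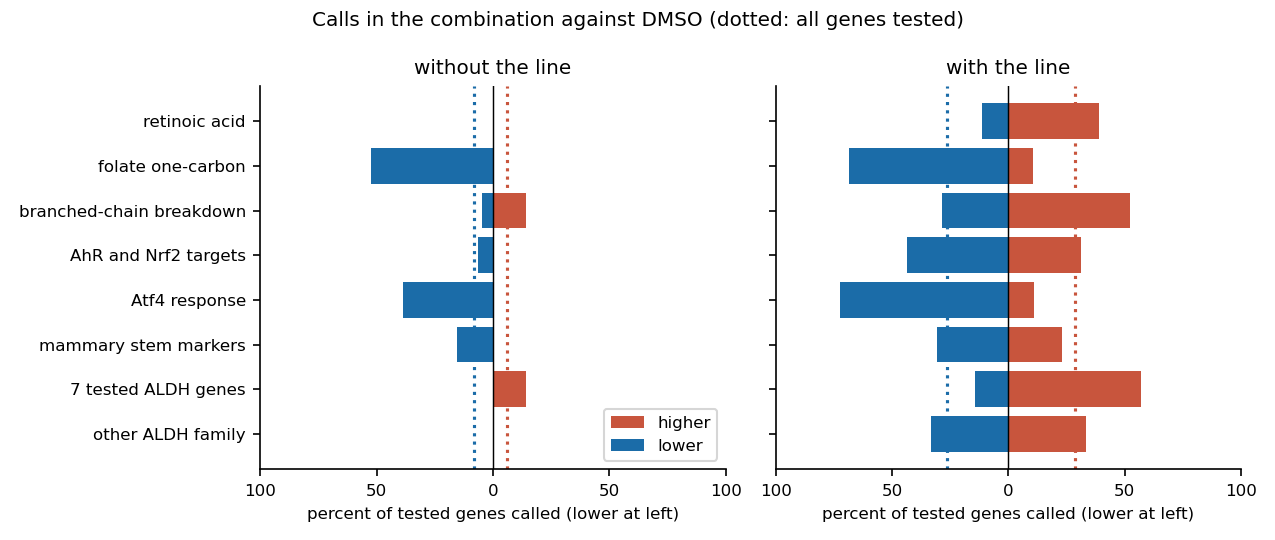
Percent of the tested genes of each list that were called lower (left, blue) or higher (right, red) in the combination against DMSO, in the unpaired fit and in the fit blocked by line; dotted lines give the same for all 13836 genes tested. The folate and Atf4 lists lie mainly on the lower side in both fits, and the 7 tested ALDH genes have 1 higher without the block and 4 higher and 1 lower with it.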

How the data were processed

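RNA-sequencing was read from 12 libraries of tumourspheres, 1 for each of 3 cell lines and 4 treatments, with groups and lines taken from the labels. The authors deposited 1 table of counts that were neither scaled nor transformed, each a whole number of reads on an Ensembl gene. The submitters' processing notes name bcl2fastq, STAR, HTSeq and the build mm10, and their versions, the annotation release and the use of strand are not given in the sources used here. Overlapping genes and close copies are therefore uncertain. The table held 0 columns of other samples. The members and all lists of genes were chosen with earlier results of these data known.

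Genes were filtered by filterByExpr (minimum count 10, minimum total count 15), scaled by TMM and tested in edgeR 4.0.16 (R 4.3.3) by its quasi-likelihood method, in 1 fit of the treatment over the 12 libraries, unpaired as in the study's methods. P-values were adjusted by Benjamini-Hochberg over all 13836 genes tested, with a threshold of 0.05, and log2 CPM used a prior count of 2. The cell line, named in the labels, pairs the libraries across treatments. Deviations from the treatment means correlated at 0.871 on average between libraries of the same line (18 pairs, 0.766 to 0.962) and at -0.422 between lines (36 pairs), so the fit with the line as a block is given beside each result it changes. No 2 of the 66 pairs of libraries held the same counts, and tested genes held at least 99.85% of the counts.

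The named genes were the 10 members, other ALDH genes called in any comparison, at most 4 genes per list (the smallest adjusted p in the combination with the block) and the 3 genes most like Aldh6a1. From the AhR and Nrf2 list, further genes were named to show both directions. The alternatives were the block, DESeq2 1.42.0, limma-voom (limma 3.58.1), DESeq2's size factors, total counts, no filter, a minimum of 10 counts in each library, a fit of the compared groups alone, a minimum log2 fold change of 1.5 in either direction, and leaving out each line. The tests were checked on simulated counts. Exon lengths and transcripts were from GENCODE M21, which held all 10 members, and were used with Python 3.11.15, pandas 2.3.3, Biopython 1.88 and matplotlib 3.10.9. RPKM used the union of exons of a gene. Protein sequences were not used here, and some genes of the lists are not reported here by name.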

Additional observations from a re-analysis of the deposited data

How the results depend on the processing

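With the replicate block (the cell line), which pairs the libraries, 5 members were called in the combination against DMSO, 4 against Crizotinib, 3 against PD173074 and 1 in the departure from additivity, where the unpaired fit called 1, 1, 1 and 0. The block changed no other call of the 7 tested members. Against PD173074 the count was 0 with no filter, with only the groups compared and with a minimum log2 fold change of 1.5. Over all genes, leaving out A1005, A1129 or A1471 left 2021, 324 or 120 called in the unpaired combination against DMSO. Such all-gene counts are not given here for the other comparisons, so lost calls there cannot be set against them. Leaving out 1 line gave 0 to 1 members against DMSO (0 without A1471), 0 to 1 against Crizotinib (0 without A1129 or A1471) and 0 to 0 against PD173074, and 0 to 0 for additivity with the block. The other 58 of 71 counts of the unpaired fit and 15 of 18 with the block stayed within 1.5 times, and all 80 mean levels moved by less than the SD between lines. Per length by the longest transcript, Aldh3a2 and Aldh7a1 changed places with DMSO, and 8 of 10 ranks stayed with DMSO, 7 with Crizotinib, 8 with PD173074 and 10 with the combination.

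Of 444 log2 fold changes of single members in the unpaired fit under the alternatives, 31 changed sign, and of 126 with the block 13 did. None of those was called in either full fit. Against Crizotinib, Aldh2 (-0.005) was at 0.061 with the block, 0.021 with DESeq2, 0.06 with limma-voom, 0.022 with size factors, 0.045 with total counts, 0.033 with at least 10 counts and 0.008 with only the groups compared. Aldh7a1 (-0.038) was at 0.019 with the block, 0.009 with limma-voom, 0.006 with total counts and 0.004 with at least 10 counts. Against PD173074, Aldh3a1 (-0.006) was at 0.008 with DESeq2, 0.013 with size factors, 0.049 with total counts and 0.016 with at least 10 counts. In the departure from additivity, limma-voom gave 0.19 for Aldh1l1 and -0.17 for Aldh3a1, and no filter gave -0.017 for Aldh7a1. The cause was not tested.

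Leaving out each line in turn gave -0.082 to 0.336 for Aldh7a1 in the combination against DMSO, -0.339 to 0.013 for Aldh3a1 with Crizotinib and -0.098 to 0.077 for Aldh7a1 with PD173074. Against Crizotinib it gave -0.062 to 0.204 for Aldh2 and -0.162 to 0.224 for Aldh7a1. Against PD173074 it gave -0.86 to 0.007 for Aldh1l2 and -0.254 to 0.169 for Aldh3a1. For additivity it gave -0.59 to 1.048 for Aldh1l1, -0.51 to 0.327 for Aldh1l2 and -0.064 to 0.147 for Aldh7a1. With the block the ranges were -0.005 to 0.343 for Aldh7a1 in the combination, -0.02 to 1.704 for Aldh1l1 with Crizotinib and -0.055 to 0.078 for Aldh7a1 with PD173074. They were -0.065 to 0.217 for Aldh7a1 against Crizotinib, and -0.777 to 0.016 for Aldh1l2 and -0.667 to 0.256 for Aldh3a1 against PD173074. For additivity with the block they were -0.555 to 1.031 for Aldh1l1, -0.441 to 0.34 for Aldh1l2, -0.363 to 0.421 for Aldh3a1 and -0.01 to 0.139 for Aldh7a1. Depth limits Aldh1a1, Aldh1a2, Aldh1a3 and Aldh1l1, which had few or no counts in most libraries.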
